A study of Mus with 51 samples.

Results

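The 36 genes described here are transcripts typical of dendritic cells and other myeloid cells, followed through libraries made from sorted CD4 T cells. They were taken by symbol from a list of such genes and looked up in the deposited count table, where all 36 were found among 34923 features. Of these, 35 passed the filter on low counts and could be tested, and Xcr1, the chemokine receptor of cross-presenting dendritic cells, did not pass. By role, 10 belong to the classical dendritic cell lineage, 9 are costimulatory, chemokine and maturation genes of mature dendritic cells, 4 mark plasmacytoid dendritic cells, and 13 are shared by many myeloid cells.

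Lymph node T cells were taken from mice that carry the 5C.C7 T-cell receptor transgenes and a deletion of Rag2, so that every group shares this genotype (B10.A background). The 5C.C7 receptor is known for binding a moth cytochrome c peptide on an MHC class II molecule, and mice without Rag2 make no B or T cells from rearranged receptors of their own. The 6 sorts were MCC+GP CD69-hi, MCC+GP CD69-lo, MCC CD69-hi, MCC CD69-lo, GP and NP (no peptide), each taken at 1, 6 and 24 h, where MCC and GP are the peptides as the labels abbreviate them and CD69 is a surface marker of early T-cell activation. Of the 18 groups, 15 had 3 libraries, while MCC CD69-lo, GP and NP at 6 h had 2. The labels state neither the age of the mice, nor the cells that presented the peptides, nor whether libraries of a group came from separate animals, so the spread between libraries may be technical.

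Dendritic cells take up antigen, carry it to the T-cell zones of lymph nodes and show it to T cells on MHC molecules together with costimulatory ligands such as CD80 and CD86. On maturation they switch on chemokines, the actin-bundling protein fascin and CD40, and cells that have met a T cell through CD40 make interleukin 12. Plasmacytoid dendritic cells are a separate lineage known for interferon production. Monocytes, macrophages and neutrophils share signalling adaptors and lysosomal proteases with dendritic cells, while calgranulins are abundant in neutrophils and monocytes. B cells or CD4 T cells are known to express at least 11 of the 36 (Irf8, Spi1, Cd83, Cd86, Cd80, Cd40, Ctss, Ifi30, Tcf4, Ccr9 and Mpeg1).

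Library totals ranged from 29030 to 10278776 counts with a median of 5436653, and the 3 libraries of MCC+GP CD69-lo at 24 h were the shallowest with 237390, 29030 and 301455 counts. In the second of these a single read was worth 16.6 CPM (scaled counts per 1000000), so a level of 0 there says little. The summed level of 14 CD4 T-cell genes was 1673 to 2839.8 CPM in those libraries, against 6221 to 6729.9 CPM in MCC CD69-lo and 9397 to 10253 CPM in NP at 24 h, and it was at least 6221 CPM in every other library. In bulk libraries such as these, fewer cells of a type and less RNA per cell cannot be told apart.

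The summed level of all 36 genes gives the outline. At 1 h it was 1266 to 2385 CPM in MCC+GP CD69-hi, 579 to 1161 in MCC+GP CD69-lo, 1347 to 2319 in MCC CD69-hi, 684 to 1171 in MCC CD69-lo, 311 to 523 in GP and 316 to 410.4 in NP. At 24 h the same groups had 437 to 829.5, 7190.5 to 13171, 506 to 947, 2512 to 3416, 274 to 564 and 270.2 to 639.9 CPM. The agonist sorts thus exceeded GP and NP at 1 h whatever their CD69, whereas at 24 h the CD69-lo sorts stood far above the CD69-hi sorts, which overlapped GP and NP. Of the 36 genes, 29 had their highest group mean in MCC+GP CD69-lo at 24 h. The share of all genes that peak in these shallow libraries was not computed. Xcr1 peaked there with a mean of 1.06 CPM from 1 read.

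**Figure D1:**
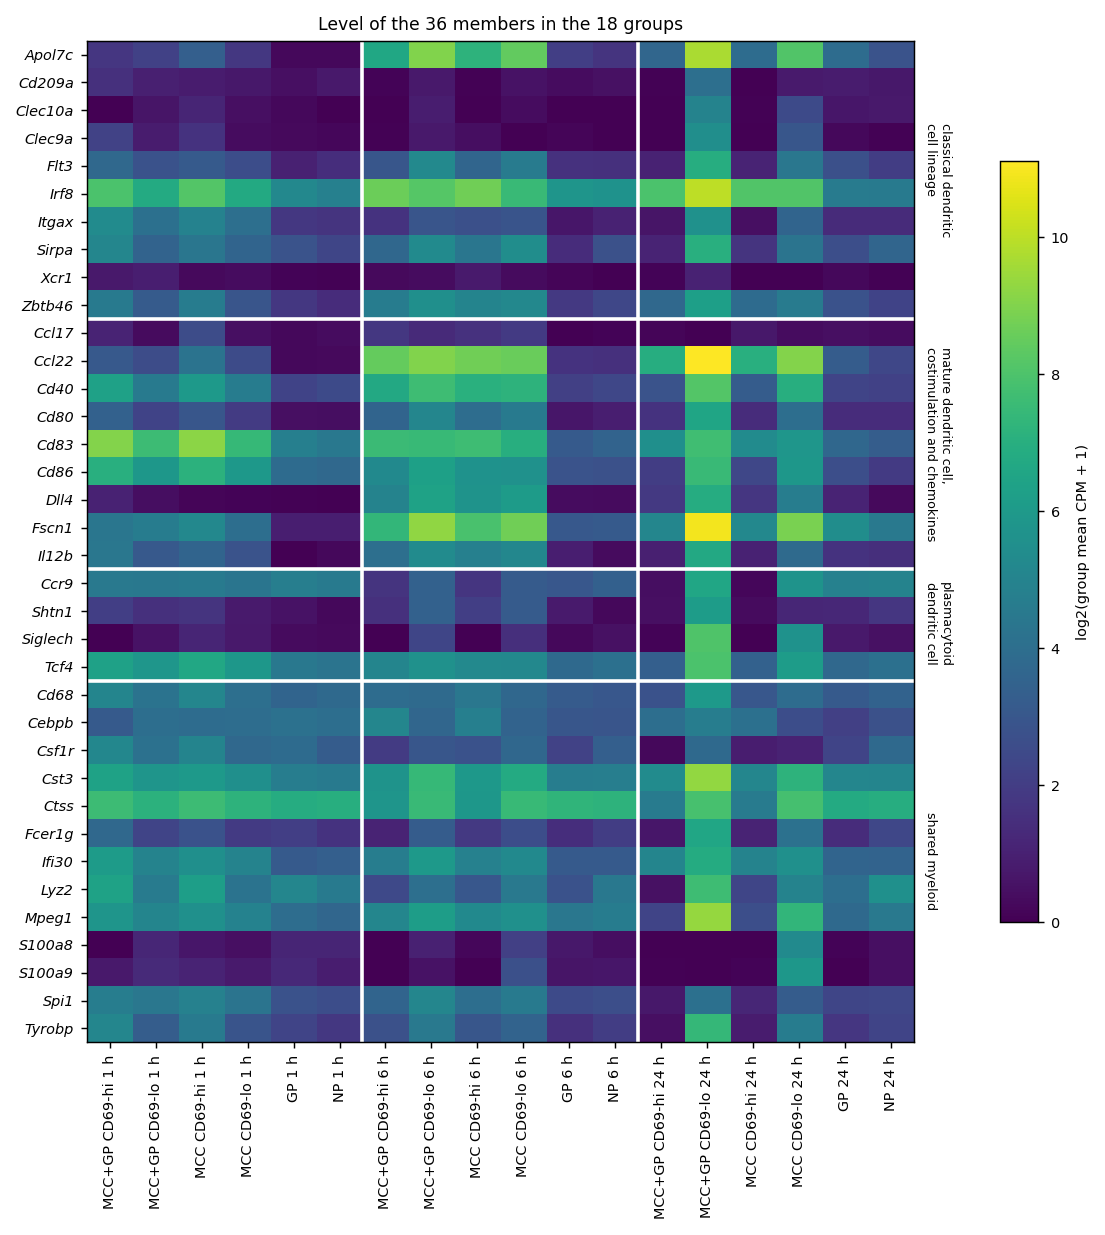
Mean level of each of the 36 genes (rows, by role) in each of the 18 groups (columns, by time), coloured by log2 of the group mean CPM plus 1. The brightest column is MCC+GP CD69-lo at 24 h, where 29 of the 36 genes peak. Its 3 libraries are the shallowest, and the share of all genes that peak there was not computed. At 6 h the mature dendritic cell genes other than Ccl17 are brighter in the 4 agonist sorts than in GP and NP.

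Of the 9 mature dendritic cell genes, 8 were higher in MCC CD69-lo than in NP at 6 h, where 2.12% of all tested genes were higher, and Ccl17 did not pass. Ccl22 (chromosome 8, 94745684 to 94751388, mm10), a chemokine made by mature dendritic cells that draws CCR4-bearing T cells, had 473, 259.8 and 529.6 CPM in the MCC CD69-hi libraries and 401 and 353 CPM in the MCC CD69-lo libraries at 6 h, against 3.13 and 0.704 CPM in NP (log2 fold change 7.58 ± 1.01 (SE), adjusted p = 6.76e-06 for CD69-lo over NP). Here and below, adjusted p-values come from edgeR's quasi-likelihood test with Benjamini-Hochberg adjustment over all 17211 tested genes, and a gene passed at an adjusted p under 0.05. Both agonist sorts lay far above NP, and they overlapped with each other (0.16 ± 0.61 on the log2 scale for CD69-hi over CD69-lo, adjusted p = 0.869). Ccl17, which lies beside Ccl22 on chromosome 8 (94809380 to 94812038) and encodes the other CCR4 ligand, stayed low, with no library above 10.5 CPM and 2.8 and 2.5 CPM in MCC CD69-lo at 6 h. The pair therefore differed in these libraries: at 24 h Ccl22 had 3194, 2269.8 and 1186 CPM in MCC+GP CD69-lo while Ccl17 was at 0 in all 3.

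Fscn1 (chromosome 5, 142960355 to 142973189), which encodes fascin, had 482 and 362 CPM in MCC CD69-lo at 6 h, against 11.2 and 4.75 CPM in NP (log2 fold change 5.71 ± 0.84 (SE), adjusted p = 3.29e-05). Dll4 (chromosome 2, 119325784 to 119335666), a Notch ligand of antigen-presenting and endothelial cells, had 78.8 and 54.9 CPM there, against 0.165 and 0.352 CPM from 3 reads in NP (pooled ratio 259, 95% interval 88.4 to 1261, adjusted p = 6.48e-07). A pooled ratio sets the scaled reads of one group's libraries over those of the other, where a group had 1 to 3 reads, and its interval covers counting error only. Il12b, the shared subunit of interleukins 12 and 23, had 44.3 and 23.9 CPM, against 0.494 and 0 CPM in NP (pooled ratio 131, 95% interval 44.6 to 639, adjusted p = 0.00255). Every library of the 4 agonist sorts at 6 h held more of each of these 3 genes than any NP or GP library at that time.

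The receptors and ligands of costimulation rose as well. Cd40, the receptor through which T cells license dendritic cells, had 166 and 127 CPM in MCC CD69-lo at 6 h, against 6.75 and 1.41 CPM in NP (log2 fold change 5.13 ± 0.69 (SE), adjusted p = 7.61e-06). Cd80 had 21.3 and 24.5 CPM, against 1.65 and 0.176 CPM (log2 fold change 4.59 ± 0.81 (SE), adjusted p = 0.000235), and Cd86 had 54.5 and 41.4 CPM, against 7.08 and 4.4 CPM (log2 fold change 3.05 ± 0.77 (SE), adjusted p = 0.0226). These encode the ligands of CD28 and CTLA-4. Cd83, a maturation marker that activated B cells also carry, had 141 and 110.5 CPM, against 13.8 and 7.56 CPM (log2 fold change 3.55 ± 0.62 (SE), adjusted p = 0.000382). No library of these 4 genes in NP reached the lowest MCC CD69-lo library at 6 h.

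**Figure D2:**
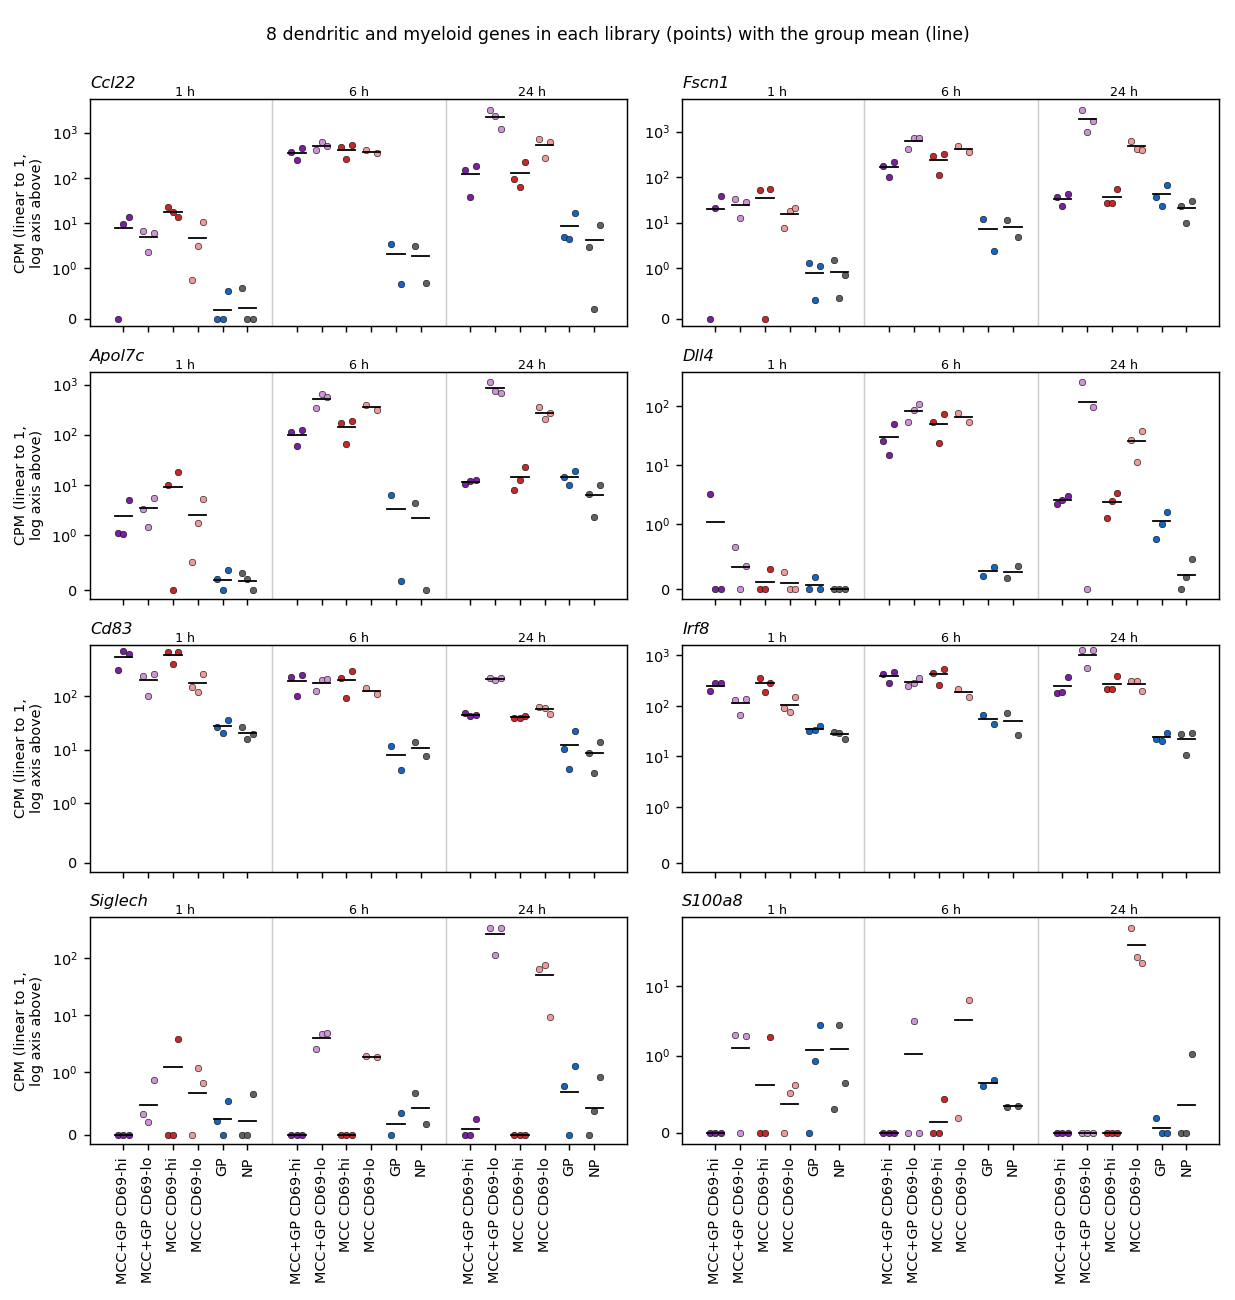
CPM of 8 genes in each library (points) with the group mean (line), by time and sort, on an axis that is linear up to 1 CPM and logarithmic above. Ccl22, Fscn1, Apol7c and Dll4 are high in all 4 agonist sorts at 6 h and mainly in the CD69-lo sorts at 24 h, Cd83 and Irf8 are already high at 1 h, and Siglech and S100a8 are highest in CD69-lo sorts at 24 h, S100a8 in MCC CD69-lo.

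Cd83 was already high at 1 h. It had 671, 395 and 656 CPM in MCC CD69-hi (log2 fold change 4.80 ± 0.51 (SE), adjusted p = 4.18e-09) and 147, 120.4 and 259 CPM in MCC CD69-lo (log2 fold change 3.08 ± 0.48 (SE), adjusted p = 7.33e-05), against 26, 16 and 19.7 CPM in NP, which both comparisons share. Its highest group mean, 574 ± 155 CPM (SD, n = 3), fell in that CD69-hi group. Ccl22 then had 0.77, 3.05 and 10.5 CPM in MCC CD69-lo, Fscn1 had 7.45, 18 and 20.8 CPM, and Dll4 had 1 read in 3 libraries. In MCC CD69-lo at 6 h over 1 h, Ccl22 rose by 6.26 ± 0.77 and Fscn1 by 4.75 ± 0.67 on the log2 scale (adjusted p = 2.88e-07 and 2.86e-06), and Dll4, with 751 reads at 6 h and 1 read at 1 h, had a pooled ratio of 970.1 (95% interval 174 to 38368, adjusted p = 3.42e-09). Cd83 did not pass in that comparison (-0.48 ± 0.48, adjusted p = 0.562).

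Among the classical lineage genes, Apol7c (chromosome 15, 77524852 to 77533335), an apolipoprotein L gene of cross-presenting dendritic cells in mice, was higher in MCC CD69-lo at 6 and 24 h. It had 397 and 307 CPM in MCC CD69-lo at 6 h, against 4.28 and 0 CPM in NP (log2 fold change 7.31 ± 0.82 (SE), adjusted p = 3.07e-07), and 355, 202 and 271 CPM at 24 h, against 6.63, 2.26 and 9.72 CPM (log2 fold change 5.42 ± 0.59 (SE), adjusted p = 3.19e-08). In MCC CD69-hi at 24 h it had 7.74, 12.4 and 22.4 CPM and did not pass against NP (adjusted p = 0.0979). Zbtb46, the transcription factor that marks committed classical dendritic cells, had 39.2 and 31.4 CPM, against 5.27 and 2.99 CPM at 6 h (log2 fold change 3.08 ± 0.45 (SE), adjusted p = 4.73e-06). Zbtb46 also passed in MCC CD69-hi over NP at all 3 times, with log2 fold changes of 3.92 ± 0.44, 2.91 ± 0.43 and 1.94 ± 0.38 at 1, 6 and 24 h. The classical lineage genes did not share this rise at 24 h. Of the 9 tested, 2 were higher and 3 lower there, with a median log2 fold change of -1.68. Of all genes, 29.2% were higher and 28.7% lower.

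Irf8, a transcription factor needed for cross-presenting and plasmacytoid dendritic cells, was detected in every group. It is also among the genes named above that B cells or CD4 T cells express. At 24 h it had 211, 215 and 392 CPM in MCC CD69-hi and 305, 315 and 195 CPM in MCC CD69-lo, against 28.1, 10.7 and 28.6 CPM in NP (log2 fold change 3.59 ± 0.43 (SE), adjusted p = 5.33e-09 for CD69-hi; log2 fold change 3.59 ± 0.43 (SE), adjusted p = 1.98e-07 for CD69-lo). All libraries of both agonist sorts lay above NP, and the sorts themselves did not pass against each other (0.01 ± 0.38 for CD69-hi over CD69-lo, adjusted p = 0.997). The summed level of B-cell genes at 24 h was 235, 201 and 388 CPM in MCC CD69-hi, against 806, 620 and 884 CPM in NP. Which cells held the Irf8 reads was not tested. Flt3, the growth factor receptor of dendritic cell progenitors, had 20.8, 29.5 and 9.67 CPM in MCC CD69-lo at 24 h, against 2.81, 0.753 and 5.62 CPM in NP (log2 fold change 2.68 ± 0.73 (SE), adjusted p = 0.00824). Itgax, which encodes CD11c, had 18.9, 8.42 and 5.6 CPM, against 1.01, 0 and 3.8 CPM (log2 fold change 2.56 ± 0.83 (SE), adjusted p = 0.027). Neither gene's groups overlapped, and the highest library of both was the first of MCC+GP CD69-lo at 24 h, with 249 CPM of Flt3 and 115 CPM of Itgax.

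Of the markers that split classical dendritic cells into subsets, Xcr1, Clec9a, Cd209a and Clec10a had few reads. Xcr1 never exceeded 3.19 CPM in any library. Clec9a, the dead-cell receptor of the cross-presenting subset, had 6.39, 66.3 and 60.0 CPM in MCC+GP CD69-lo and 13.2, 7.45 and 0 CPM in MCC CD69-lo at 24 h, against 0, 0 and 0.152 CPM in NP (pooled ratio 102, 95% interval 17.2 to 4142, adjusted p = 0.00117, for MCC CD69-lo over NP). Cd209a and Clec10a are lectins of the other subset. In MCC+GP CD69-lo at 24 h Cd209a had 6.39, 33.1 and 7.82 CPM, from 7 reads, and Clec10a had 47.9, 16.6 and 26.1 CPM, from 26 reads. Sirpa, a further marker of that subset that macrophages share, had 214, 49.7 and 125 CPM there, against 3.65, 1.85 and 10.5 CPM in GP (log2 fold change 4.77 ± 0.79 (SE), adjusted p = 1.15e-05). Genes of both subsets were therefore detected in the same libraries. Levels of Clec9a, Cd209a and Clec10a there were set by few reads, while Sirpa had 67, 3 and 48 reads.

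The 4 plasmacytoid markers differed among themselves. Siglech (chromosome 7, 55768154 to 55779448), a lectin of mouse plasmacytoid dendritic cells, was at or below 4.78 CPM in every library at 1 and 6 h. At 24 h it had 348, 116 and 342 CPM in MCC+GP CD69-lo and 64.2, 76.8 and 9.16 CPM in MCC CD69-lo, against 0.768, 0 and 1.28 CPM in GP and 0, 0.377 and 0.911 CPM in NP (log2 fold change 8.64 ± 0.96 (SE), adjusted p = 1.35e-08 for MCC+GP CD69-lo over GP; log2 fold change 6.68 ± 0.94 (SE), adjusted p = 3.7e-06 for MCC CD69-lo over NP). All 3 MCC CD69-hi libraries at 24 h were at 0. Tcf4, the E protein that directs plasmacytoid identity and that B and T cells also express, had 57.6, 97.5 and 51.4 CPM in MCC CD69-lo, against 19.1, 12.2 and 17 CPM in NP (log2 fold change 2.12 ± 0.40 (SE), adjusted p = 0.000202). At 1 h it had 115, 62.9 and 120.0 CPM in MCC CD69-hi, against 21.4, 15.8 and 17.1 CPM in NP (log2 fold change 2.49 ± 0.40 (SE), adjusted p = 7.06e-06).

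Ccr9, a gut-homing receptor of plasmacytoid dendritic cells and of some T cells, was present in NP and GP and followed another course. It had 0, 0.306 and 0.136 CPM in MCC CD69-hi at 24 h, against 36.4, 28.6 and 26.1 CPM in NP (pooled ratio 0.00478, 95% interval 0.000982 to 0.014, adjusted p = 1.28e-20), so almost no reads of it were found in that sort. At 6 h it had already fallen in MCC CD69-hi (log2 fold change -2.12 ± 0.37 (SE), adjusted p = 1.93e-06). In MCC CD69-lo at 24 h it had 39.7, 61.6 and 53.4 CPM and was somewhat higher than in NP (log2 fold change 0.79 ± 0.27 (SE), adjusted p = 0.0304), a rise whose adjusted p ranged up to 0.140 under other settings. Shtn1, which encodes shootin and is enriched in plasmacytoid cells, had 19.2, 99.4 and 91.3 CPM in MCC+GP CD69-lo and 2.83, 0.972 and 0 CPM in MCC CD69-lo at 24 h (log2 fold change 5.94 ± 0.90 (SE), adjusted p = 1.81e-06).

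Of the shared myeloid genes, the adaptors Tyrobp and Fcer1g and the lysosomal genes Cst3, Ctss, Mpeg1 and Ifi30 were followed. Tyrobp (chromosome 7, 30413782 to 30417582), which encodes the DAP12 adaptor, had 27.4, 37.9 and 7.12 CPM in MCC CD69-lo at 24 h, against 1.81, 2.45 and 7.14 CPM in NP (log2 fold change 2.63 ± 0.59 (SE), adjusted p = 0.00132). Cst3, the cystatin C gene that is abundant in dendritic cells, had 174, 158 and 99.7 CPM, against 26.5, 22.6 and 46.9 CPM (log2 fold change 2.15 ± 0.41 (SE), adjusted p = 0.000245). Mpeg1, a pore-forming protein of phagocytes that B cells also make, had 157, 232 and 93.6 CPM, against 7.04, 9.98 and 48.5 CPM (log2 fold change 2.85 ± 0.73 (SE), adjusted p = 0.00517). The groups did not overlap for Cst3 and Mpeg1, while for Tyrobp the third library of each group stood at nearly the same level. Fcer1g did not pass in MCC CD69-lo over NP at 24 h (1.92 ± 0.71, adjusted p = 0.0529).

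Ctss, cathepsin S, which trims the invariant chain of MHC class II, was at a high level in NP as well and fell in MCC CD69-hi at 6 and 24 h. At 1 h it had 207, 209.8 and 175 CPM in MCC CD69-hi, against 134, 146 and 94.1 CPM in NP, and did not pass (adjusted p = 0.0617). It had 24.2, 20.7 and 26 CPM in MCC CD69-hi at 24 h, against 102, 98.3 and 163 CPM in NP (log2 fold change -2.36 ± 0.28 (SE), adjusted p = 3.21e-09), and the groups did not overlap. Cebpb, a transcription factor of monocytes and granulocytes, went the other way in CD69-hi cells, with 22.2, 26.3 and 31.6 CPM in MCC CD69-hi at 6 h, against 9.55 and 3.69 CPM in NP (log2 fold change 2.00 ± 0.46 (SE), adjusted p = 0.000287). Spi1, the PU.1 transcription factor that myeloid and B cells need, had 22.6, 27.6 and 49.3 CPM in MCC+GP CD69-lo at 6 h, against 5.64 and 3.78 CPM in GP (log2 fold change 2.83 ± 0.71 (SE), adjusted p = 0.00686). Ifi30, a thiol reductase of antigen processing, was higher in both agonist sorts at every time, with log2 fold changes over NP at 24 h of 1.47 ± 0.40 for the CD69-hi and 2.09 ± 0.42 for the CD69-lo sort.

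Lyz2 and Csf1r, genes of monocytes and macrophages, varied widely between libraries of a group. Lyz2 had 9.58, 0 and 599.8 CPM in MCC+GP CD69-lo at 24 h, against 1.73, 0.673 and 42.6 CPM in GP (log2 fold change 4.06 ± 1.23 (SE), adjusted p = 0.0102). Without the third MCC+GP CD69-lo library this log2 fold change was -0.89 (adjusted p = 0.887), so the call rested on that library. Csf1r, the receptor for macrophage colony-stimulating factor, had 0, 0 and 39.1 CPM in the same group, again from that library only. Cd68, a lysosomal glycoprotein of macrophages, had 19.2, 33.1 and 130.4 CPM there, against 9.41, 7.57 and 6.86 CPM in GP (log2 fold change 3.17 ± 0.48 (SE), adjusted p = 5.92e-07). Its values in MCC+GP CD69-lo came from 6, 2 and 50 reads, so most of its reads were in the third library as well.

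The calgranulin genes S100a8 and S100a9, neighbours on chromosome 3 (90669071 to 90670034 and 90692630 to 90695721) and abundant in neutrophils and monocytes, were highest in a single group. S100a8 had 69.9, 25.9 and 21.4 CPM in MCC CD69-lo at 24 h, against 0, 0 and 1.06 CPM in NP (log2 fold change 6.52 ± 1.43 (SE), adjusted p = 0.00184). S100a9 had 54.8, 48.6 and 69.7 CPM, against 0, 0 and 1.06 CPM (log2 fold change 7.09 ± 1.45 (SE), adjusted p = 0.000855). All 3 MCC CD69-lo libraries stood far above NP for both genes. Both were at 0 in all 3 MCC+GP CD69-lo libraries at 24 h, a level at least 14.6-fold lower for S100a9 (adjusted p = 0.046). That p ranged from 0.000958 to 0.154 over the other settings, and S100a8 did not pass (adjusted p = 0.0624). The next highest values were in the second MCC CD69-lo library at 6 h, where the 2 libraries had 0.187 and 6.34 CPM of S100a8 and 0 and 11.2 CPM of S100a9.

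The counts over all tested members set these genes in proportion. In MCC CD69-lo over NP, 10 of 35 members were higher at 1 h, 15 at 6 h and 24 at 24 h, and none were lower. Of all 17211 genes, 2.72%, 2.12% and 9.83% were higher and 0.436%, 0% and 8.65% lower at these times. The median log2 fold change of the members was 1.69, 2.51 and 2.63, against -0.01, 0.02 and 0.00 over all genes, and it was 1.60, 2.26 and 2.63 with members at 0 in one group set to their bound. At 6 h, 8 of 9 mature dendritic cell genes but 2 of 13 shared myeloid genes passed. The 1 h count fell to 1 without the third MCC CD69-lo library and to 6, 4 and 4 without the first, the second and the third NP library, and the 6 h count fell to 7 without the second NP library, which left NP with 1 library assumed to vary like the other groups.

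In MCC CD69-hi over NP, 24 of 35 members were higher at 1 h (background 12.4%, with 17% lower), 20 were higher and 2 lower at 6 h (23.2% and 23.6%), and 7 were higher and 11 lower at 24 h (29.2% and 28.7%). The shares at 24 h were close to or below the background in each direction. The 7 that were higher were Ccl22, Irf8, Dll4, Cd83, Zbtb46, Ifi30 and Cebpb, and among the 11 that were lower were Ccr9, Ctss, Shtn1, Csf1r and Lyz2. Without the third NP library, whose 108 CPM of Lyz2 was the highest value in NP, 11 members passed at 24 h in place of 18.

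**Figure D3:**
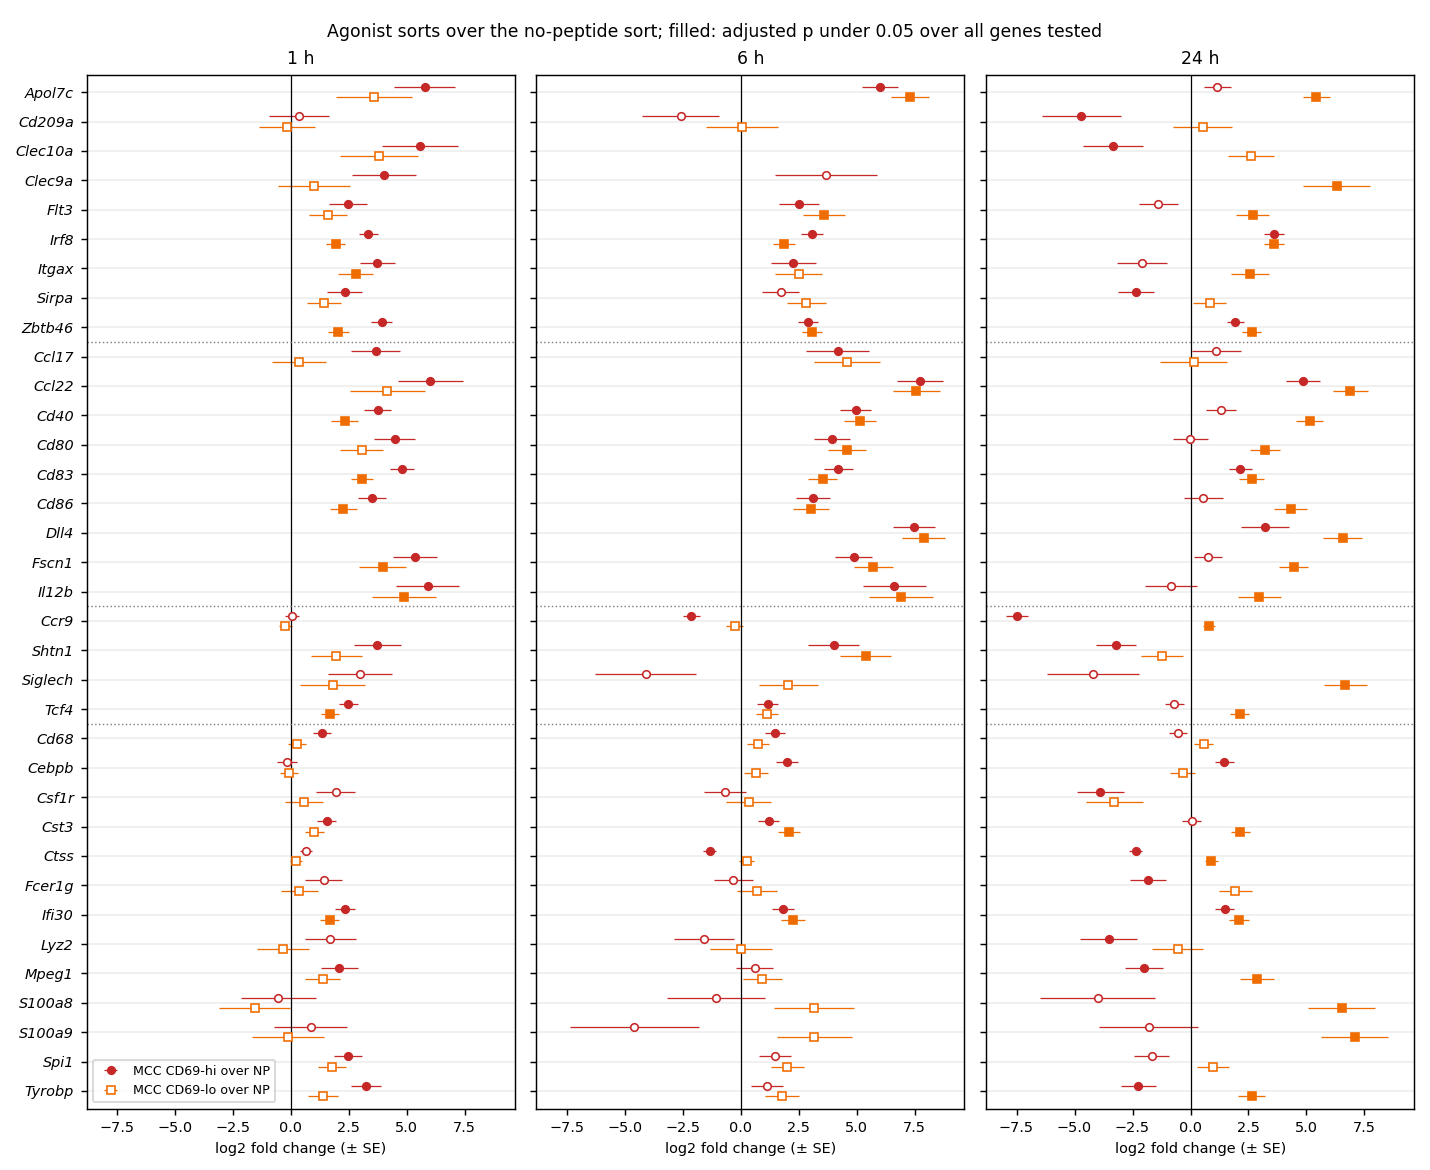
Log2 fold change with its standard error for 35 tested members (rows, by role) in MCC CD69-hi (circles) and MCC CD69-lo (squares) over NP at 1, 6 and 24 h; filled symbols passed an adjusted p of 0.05 over all genes, and a gene with 3 reads or fewer in both groups is not drawn. Both sorts lie to the right of 0 at 1 and 6 h for most genes, and at 24 h 24 members were higher in CD69-lo, where 9.83% of all genes were, while 11 were lower in CD69-hi, a share near the 28.7% of all genes.

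MCC+GP CD69-lo over GP, a comparison that shares no library with those to NP, gave 11 of 35 members higher at 1 h, 22 at 6 h and 30 at 24 h, with none lower (background 1.99%, 7.41% and 15.3% higher, and 0.186%, 2.92% and 18.4% lower). Of the members higher in MCC CD69-lo over NP, 10 of 10 at 1 h and 15 of 15 at 6 h were higher here too. At 24 h, 22 of 24 were. These made up 90.9%, 68.2% and 73.3% of the members higher in this comparison at the 3 times. The same overlap over all genes was not computed, so it cannot be called particular to the members. At 6 h Ccl22 differed by 8.0 ± 1.01 on the log2 scale (adjusted p = 7.66e-07), and Dll4, with 3 reads in GP, had a pooled ratio of 302 (95% interval 103 to 1468, adjusted p = 6.12e-08). The 1 h count fell to 2, 3 and 7 without the first, the second and the third GP library and to 4 without the first or the third MCC+GP CD69-lo library, and the 6 h count to 11 without the second GP library. At 24 h 15 of 20 B-cell genes were higher in MCC+GP CD69-lo than in GP as well, and 14 of 14 CD4 T-cell genes were lower.

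The 1 h differences moved together with RNA of B cells. The summed level of 20 B-cell genes was 3299 to 5343 CPM in MCC CD69-hi and 1533 to 4783 CPM in MCC CD69-lo at 1 h, against 588 to 833 CPM in NP. Of these genes 19 and 17 passed as higher, against 12.4% and 2.72% of all genes. MHC class II genes (10) summed to 3078 to 5533 and 1599 to 4914 CPM, against 361 to 676 CPM. With the B-cell sum as a covariate, 3 members in MCC CD69-hi (Cd83, Irf8 and Zbtb46) and 1 in MCC CD69-lo (Cd83) still passed at 1 h, as higher. In that fit 885 and 265 of all 17211 genes were higher in these comparisons, and 1537 and 51 were lower. At 6 and 24 h, 14 and 25 members passed with that covariate in MCC CD69-lo over NP. Of all genes, 339 and 1376 were higher there, and 5 and 1438 were lower. The B-cell sums at 6 h were 917 to 1409 CPM, against 434 to 720.3 CPM in NP. At 24 h they were 777 to 1628 CPM, against 619.8 to 884 CPM. A covariate of this kind also removes RNA of other cells that vary with B cells.

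**Figure D4:**
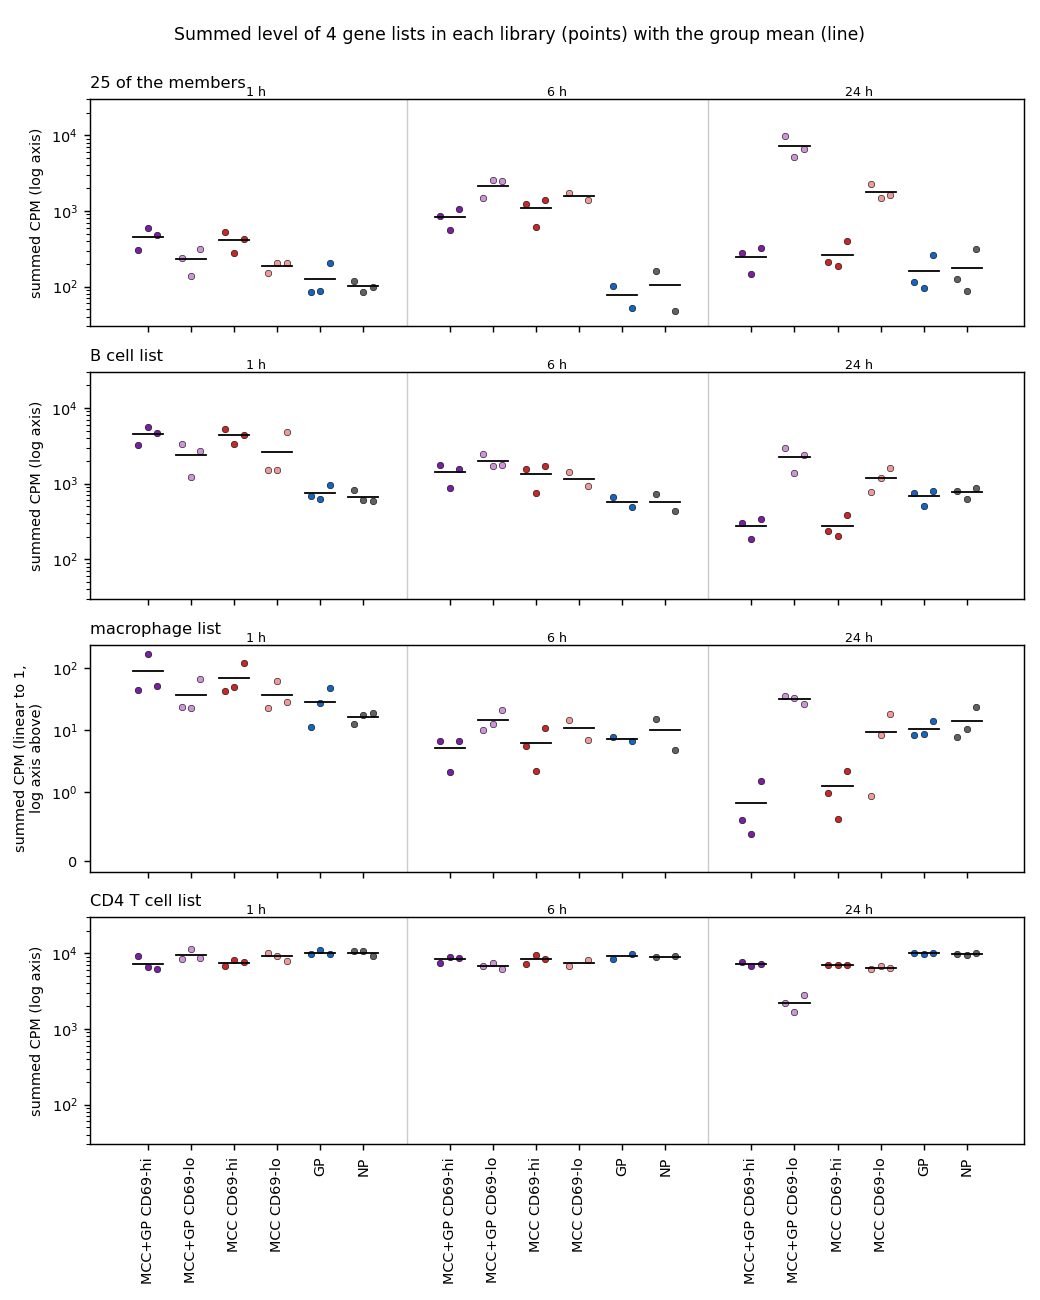
Summed CPM in each library (points) with the group mean (line) for the 25 members outside the 11 named as genes of B or CD4 T cells, the B cell list, the macrophage list and the CD4 T cell list, on log axes (the macrophage axis is linear up to 1). The B-cell sum is highest in agonist sorts at 1 h, and the CD4 T-cell sum is lowest in MCC+GP CD69-lo at 24 h. The group mean of the sum of the 25 members is highest in agonist sorts at 6 h and in CD69-lo sorts at 24 h.

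Without these 11 genes of B or CD4 T cells, the sum of the other 25 members was 277 to 526 CPM in MCC CD69-hi and 150.2 to 206 CPM in MCC CD69-lo at 1 h, against 85 to 119 CPM in NP. At 6 h it was 619 to 1396 and 1389.7 to 1741 CPM, against 47 to 161 CPM. At 24 h it was 185 to 397 and 1478 to 2281 CPM, against 88.5 to 309.7 CPM. These 25 may include further genes that other cells express. In MCC CD69-hi at 24 h, where Siglech was at 0, Ccl22 had 95.6, 63.4 and 225 CPM. Cst3 had 33.7, 29.9 and 36.5 CPM there, and Cebpb had 15.3, 18.5 and 14 CPM. Which cells held these reads was not tested.

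Markers of other cells were followed in the same libraries. The 12 macrophage genes summed to at most 171 CPM in any library, with 26.1 to 35.1 CPM and 6 of 12 at 0 in MCC+GP CD69-lo at 24 h, and of the 11 that could be tested none passed in MCC CD69-lo over NP at any time, while 4 were higher in MCC CD69-hi over NP at 1 h. Beside S100a8 and S100a9, 4 of 8 tested neutrophil genes were higher in MCC CD69-lo over NP at 24 h, among them Ngp at 1.89 to 26.5 CPM and Mmp9, and their list summed to 33.7 to 59.5 CPM, against 3.58 to 6.68 CPM in NP. Of 9 tested natural killer cell genes, 6 were higher and 1 was lower there, with sums of 56.7 to 101 and 59.5 to 76.4 CPM. Of all genes, 9.83% were higher and 8.65% lower in MCC CD69-lo over NP at 24 h. In MCC CD69-hi over NP at 1 h, 12.4% were higher. Whether macrophages, neutrophils or natural killer cells contributed to the members' values was not tested.

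Other genes of dendritic cells moved in the same libraries. Of 23 tested dendritic cell genes outside the 36, 12 were higher in MCC CD69-lo over NP at 6 h (2.12% of all genes). At 24 h 13 were higher (9.83% of all genes), and none were lower at either time (0% and 8.65%). Among them Relb, an NF-kB subunit of dendritic cell maturation, rose by 1.06 ± 0.23 and 1.63 ± 0.20 on the log2 scale at 6 and 24 h (SE, adjusted p = 0.00262 and 1.69e-08). Ccr7, which guides mature dendritic cells and naive T cells to lymph nodes, averaged 528 CPM in MCC CD69-lo and 532 CPM in NP at 6 h. Of 11 other plasmacytoid genes, 1 and 9 were higher at 6 and 24 h. Among 28 genes of antigen processing, costimulation and cytokines, 9 and 21 were higher, including Tap1 at 24 h by 1.06 ± 0.23 (adjusted p = 0.000846), a peptide transporter that many cell types induce.

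CD69-hi cells set against CD69-lo cells of the same culture condition showed how the members split by sort. In MCC CD69-hi over MCC CD69-lo at 1 h, 5 members were higher and 0 lower (3.46% and 9.06% of all genes): Irf8, Cd83, Tyrobp, Zbtb46 and Ccl17. At 6 h, 2 were higher (Irf8 and Cebpb) and 6 lower (19.9% and 22.5%). At 24 h, 1 was higher (Cebpb) and 27 lower (29.1% and 32.6%), with a median of -3.36 (-3.26 with members at 0 set to their bound) against -0.20 over all genes. The 1 h count was 2 without the first MCC CD69-hi library and 1 without the second MCC CD69-lo library, and the 6 h count was 4 without the second MCC CD69-lo library. With the B-cell sum as a covariate 1 member passed at 1 h, where 552 of all 17211 genes were higher and 1474 lower.

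In MCC+GP CD69-hi over MCC+GP CD69-lo, 6 members were higher and 0 lower at 1 h (5.4% and 13.3%), 1 higher and 17 lower at 6 h (20.9% and 25.2%), and 0 higher and 31 lower at 24 h (26.5% and 20%). The 1 h count fell to 2 without the second library of either group and to 0 with the B-cell sum as a covariate. At 24 h Fscn1 had 36.6, 22.7 and 41.7 CPM in MCC+GP CD69-hi, against 3035, 978 and 1713 CPM in MCC+GP CD69-lo (log2 fold change -5.87 ± 0.66 (SE), adjusted p = 4.28e-09). Clec10a was at 0 in all 3 MCC+GP CD69-hi libraries, at least 214-fold lower than in MCC+GP CD69-lo (adjusted p = 1.56e-07). The shallow MCC+GP CD69-lo libraries carry this comparison, and the MCC pair, whose CD69-lo libraries held 941304 to 2870776 counts, gave the same direction for Fscn1 (26.6, 27.6 and 53.6 against 625, 409 and 385 CPM, log2 fold change -3.71 ± 0.60 (SE), adjusted p = 2.36e-06).

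At 24 h 3 of the 9 mature dendritic cell genes (Ccl22, Dll4 and Cd83) were higher in MCC CD69-hi than in NP, a share near the 29.2% of all genes. Ccl22 had 95.6, 63.4 and 225 CPM in MCC CD69-hi and 713, 272 and 610.0 CPM in MCC CD69-lo, against 3.02, 0.188 and 9.27 CPM in NP. It was lower in CD69-hi than in CD69-lo (log2 fold change -2.04 ± 0.57 (SE), adjusted p = 0.00251) and higher in CD69-hi than in NP (log2 fold change 4.85 ± 0.73 (SE), adjusted p = 5.66e-07). Cd86, with 3.1, 1.84 and 7.35 CPM in MCC CD69-hi at 24 h, against 2.41, 1.51 and 4.25 CPM in NP, did not pass (adjusted p = 0.588), and neither did Cd40, with 3.94, 5.98 and 15.6 CPM, against 3.82, 2.07 and 4.4 CPM (adjusted p = 0.0831).

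**Figure D5:**
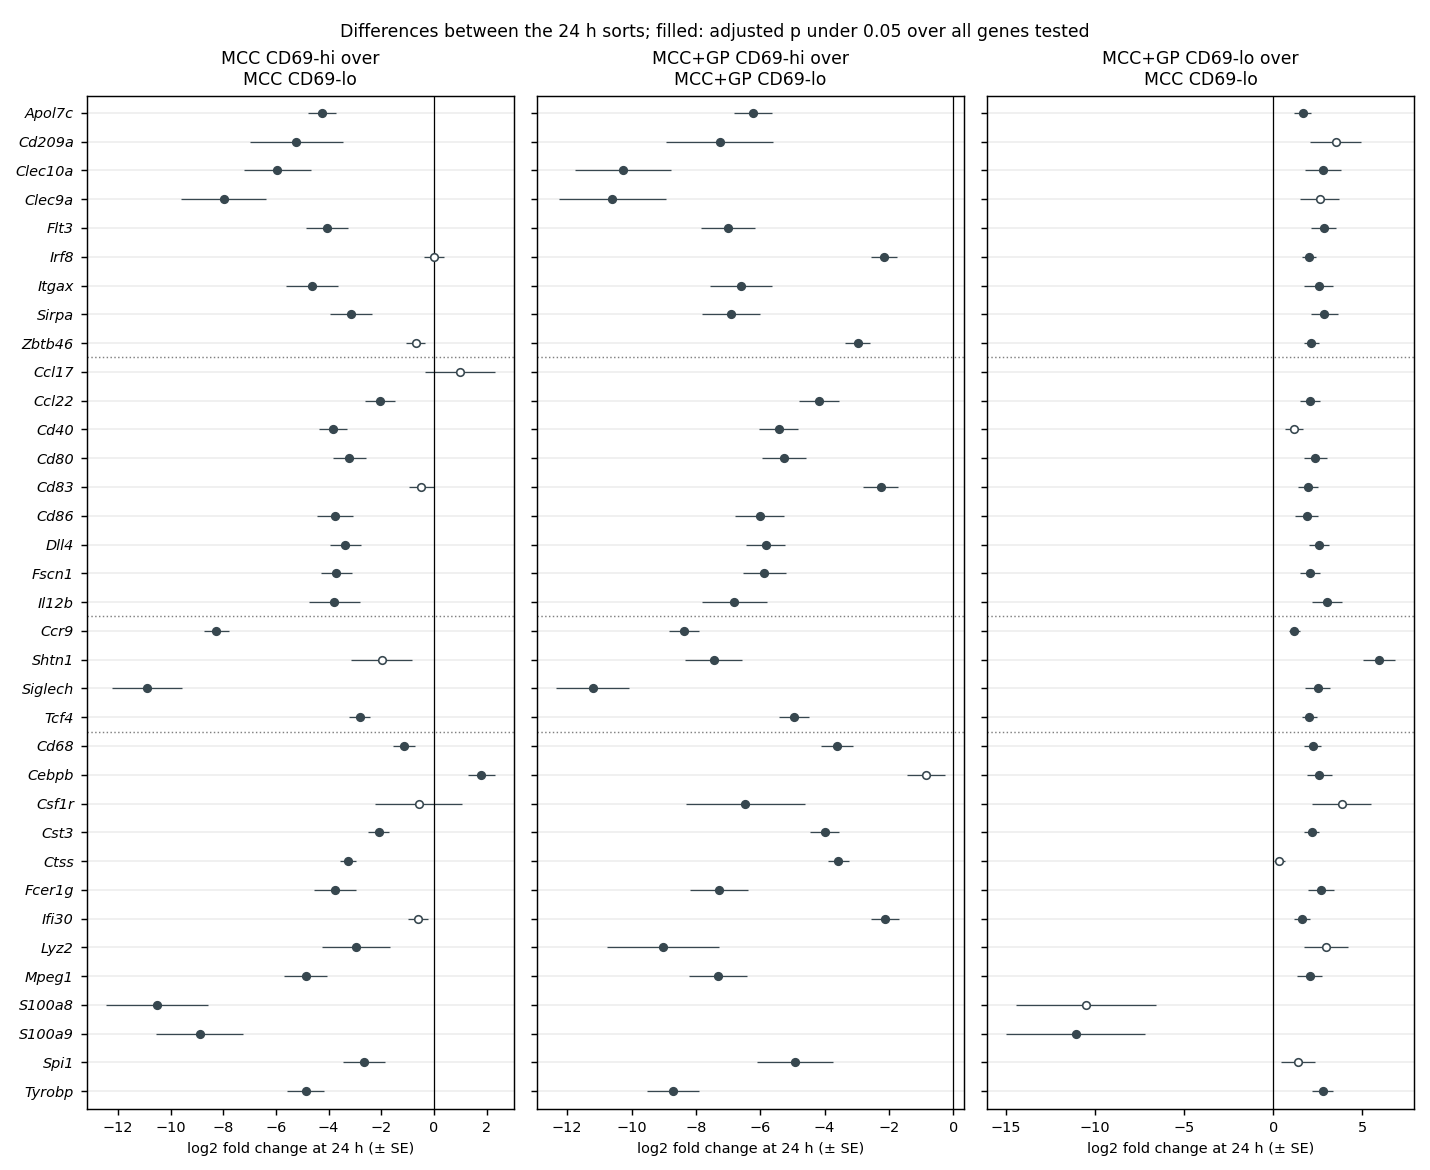
Log2 fold change with its standard error at 24 h for the tested members (rows, by role) in 3 comparisons between sorts; filled symbols passed an adjusted p of 0.05 over all genes, and a gene with 3 reads or fewer in both groups is not drawn. In MCC CD69-hi over MCC CD69-lo 27 members were lower, where 32.6% of all genes were. In MCC+GP CD69-hi over MCC+GP CD69-lo 31 were lower (20% of all genes). In MCC+GP CD69-lo over MCC CD69-lo 25 were higher (7.37% of all genes). Both comparisons with MCC+GP CD69-lo rest on its shallow libraries of 29030 to 301455 counts.

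The difference of MCC CD69-hi from NP itself changed with time. Set as 24 h minus 1 h, 26 members had a lower and 1 a higher log2 fold change over NP (19.4% and 25.6% of all genes). For Itgax the change was -5.82 ± 1.30 (adjusted p = 0.000342) and for Cebpb, the exception, 1.62 ± 0.59 (adjusted p = 0.0221). Without the third NP library at 24 h, 16 members passed in place of 27. With the B-cell sum as a covariate 6 passed, 2 higher and 4 lower, and the values of 9 members turned positive. In that fit 3000 of all 17211 genes were higher and 1713 lower. With that covariate the members' shares were thus close to or below those of all genes in each direction. Without it 26 of 35 members were lower, against 19.4% of all genes. For MCC CD69-lo over NP the same contrast passed for S100a8 only (8.07 ± 2.06, adjusted p = 0.0263; background 3.34%), a call lost when any 1 of 6 libraries was left out, with the B-cell sum as a covariate or with DESeq2. The number of members that passed there was 6 with that covariate, 5 with a replicate block, 4 with DESeq2 and 4 with only the compared groups fitted.

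With GP added to MCC, most members were higher in CD69-lo cells at 24 h. In MCC+GP CD69-lo over MCC CD69-lo, 0 of 35 members passed at 1 h or at 6 h (background 0% and 0%), where 0 and 2 members had an unadjusted p under 0.05 with edgeR and DESeq2 called 0 at both times. At 24 h, 25 were higher and 1 lower (7.37% and 12%), with a median of 2.16 against -0.29 over all genes. With size factors by relative log expression in place of trimmed means, the median of all genes in this comparison moved by 0.22, and 25 members passed. Ccl22 differed by 2.06 ± 0.58, Fscn1 by 2.08 ± 0.56 and Irf8 by 2.01 ± 0.41 on the log2 scale (adjusted p = 0.0106, 0.00814 and 0.000534).

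That comparison rests on the 3 shallow libraries, in which the CD4 T-cell sum was lowest and 11 of 14 CD4 T-cell genes were lower than in MCC CD69-lo. Without the first of them 15 members passed in place of 26, and 11 passed with the B-cell sum as a covariate. With that covariate 875 of all 17211 genes were higher and 1796 lower. B-cell genes summed to 1375 to 2942 CPM in MCC+GP CD69-lo and 777 to 1628 CPM in MCC CD69-lo. Depth, T-cell RNA and the added peptide cannot be told apart in that group. Over time, as 24 h minus 1 h, the difference was larger for 7 members (background 3.03%, with 7.7% in the other direction): Shtn1, Tcf4, Zbtb46, Irf8, Cst3, Cd68 and Cebpb. That count was 3 without the third MCC+GP CD69-lo or the third MCC CD69-lo library at 24 h, 4 without the first or second MCC+GP CD69-lo library at 1 h, and 11 without the second MCC+GP CD69-lo library at 24 h.

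In CD69-hi cells no difference with GP was detected for these genes. In MCC+GP CD69-hi over MCC CD69-hi, 0 members passed at 1, 6 or 24 h (background 0.68%, 0% and 0%), with 1, 0 and 0 members at an unadjusted p under 0.05 with edgeR and 0 calls by DESeq2. Ccl22 had 371, 241 and 459 CPM in MCC+GP CD69-hi and 473, 259.8 and 529.6 CPM in MCC CD69-hi at 6 h, with overlapping groups. GP alone over NP gave 0 members at each time (background 0%, 0% and 0.00581%), with 0 members at an unadjusted p under 0.05 at 1, 6 or 24 h with edgeR and 0 calls by DESeq2. Fscn1 had 36.5, 23.6 and 68.6 CPM in GP and 23.7, 9.6 and 30.4 CPM in NP at 24 h (1.01 ± 0.59, adjusted p = 1).

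Over time without peptide, the shares of members that passed were close to or below those of all genes. In NP at 24 h over NP at 1 h, 4 members were higher and 2 lower (background 11.3% and 12.6%). Fscn1 had 23.7, 9.6 and 30.4 CPM at 24 h, against 1.54, 0.40 and 0.857 CPM at 1 h (log2 fold change 4.41 ± 0.96 (SE), adjusted p = 0.000691), and Apol7c had 6.63, 2.26 and 9.72 CPM, against 0.307, 0.20 and 0 CPM (pooled ratio 34.8, 95% interval 11.6 to 172, adjusted p = 0.00565). Shtn1 and Clec10a were the others that were higher, and Cd86 and Cebpb were lower. In MCC CD69-lo, 19 members were higher and 3 lower at 24 h over 1 h (13.3% and 15%), and 11 higher and 1 lower at 6 h over 1 h (8.45% and 8.38%), a count of 7 without the first MCC CD69-lo library at 6 h.

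Between genes, levels can be set side by side only per length. On the deposited TPM values (transcripts per 1000000 after division by length), rescaled to sum to 1000000 in each library, Ccl22 and Fscn1 led in MCC+GP CD69-lo at 24 h with means of 3583 and 3496 TPM, ahead of Cst3 with 1979 TPM. In MCC CD69-lo at 6 h Fscn1 led with 463 TPM and Ccl22 followed with 343 TPM. In MCC CD69-hi at 1 h Cd83 led with 351 TPM and Irf8 followed with 232 TPM. In NP at 1 h Ctss led with 114 TPM, ahead of Cst3 with 42.4 TPM.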

How the data were processed

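RNA was measured in 51 libraries of sorted CD4 T cells, and all analyses start from 2 tables of the whole series. Per the submitters' processing notes, the authors used bcl2fastq 2.20, STAR 2.6.1c, HTSeq 0.9.1 and the mm10 build. The deposited read count table holds whole-number counts per gene. The deposited TPM table has columns that sum to 9986 to 9996, so its values were rescaled to 1000000 and used only to set genes side by side. Library totals ranged from 29030 to 10278776 counts, which sets the precision of each value. Intervals and floors (3 counts over a group) cover counting error only.

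Counts were fitted with edgeR 4.0.16 in R 4.3.3: trimmed-mean (TMM) factors, filterByExpr by group, 1 coefficient per group over all 51 libraries, robust quasi-likelihood test, Benjamini-Hochberg adjustment over 17211 genes and a threshold of 0.05. CPM are TMM-scaled, and the standard error of a log2 fold change is its size over the root of F. The 27 comparisons and 3 differences of differences (24 h minus 1 h) were chosen by design, and the alternatives for the 3 differences were added after seeing the data. Alternatives were relative log expression factors, no filter, DESeq2 1.42.0, only the compared groups, a replicate block by plate round, a B-cell RNA covariate, no MCC+GP CD69-lo libraries at 24 h, and each library left out, for which dispersion trend and genes were kept from the complete fit.

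Full values are given for members that passed in MCC CD69-lo or MCC CD69-hi over NP, or in MCC+GP CD69-lo over MCC CD69-lo, up to 20 by highest group mean, and for Xcr1, Clec9a, Siglech, S100a8 and S100a9; up to 4 genes of each other list may be named by mean CPM. Other members named illustrate a count and were chosen after their values were seen. The members and lists were chosen with earlier results of these data known. Coordinates come from RefSeq's annotation of the same build, in which all 36 symbols matched. Promoter motifs were not searched. Replicate pairs differed by 4.17 to 21.7 times the sampling variance, so none was treated as 1 library. The labels do not say that wells mark batches or that libraries are separate animals, so p-values measure the spread between these libraries.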

Additional observations from a re-analysis of the deposited data

Results flagged for a closer look

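The 3 contrasts between times were tested as differences of log2 fold changes (24 h minus 1 h), and 35 values passed an adjusted p under 0.05 with edgeR. For MCC CD69-hi over NP the difference fell most for Clec10a (-8.93), Ccr9 (-7.54), Siglech (-7.19), Shtn1 (-6.95) and Il12b (-6.72). It was -5.82 for both Itgax and Csf1r, -5.49 for Tyrobp, -5.24 for Lyz2 and -5.07 for Cd209a. Sirpa had -4.67, Apol7c -4.62, Fscn1 -4.60, Cd80 -4.49, Spi1 -4.15 and Mpeg1 -4.11. Flt3 had -3.85, Fcer1g -3.25, Tcf4 -3.19, Ctss -3.01, Cd86 -2.95, Cd83 -2.65 and Cd40 -2.46. The smallest passing falls were in Zbtb46 (-1.98), Cd68 (-1.89) and Cst3 (-1.50), and Cebpb was the member with a rise (1.62). Where a gene had almost no reads in 1 of the groups, as Clec10a and Siglech did in MCC CD69-hi at 24 h, the fitted size depends on the prior count. With the B-cell RNA covariate 6 members passed in this contrast, 2 higher and 4 lower, and 9 of the falls turned positive. Of all 17211 genes, 3000 were higher and 1713 lower in that fit.

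For MCC CD69-lo over NP the member that passed was S100a8, at 8.07. For MCC+GP CD69-lo over MCC CD69-lo the difference was 4.69 for Shtn1, 2.52 for Cebpb, 2.06 for Tcf4, 2.02 for Cd68, 1.93 for Irf8, 1.92 for Cst3 and 1.86 for Zbtb46. These rest on the 3 shallow MCC+GP CD69-lo libraries at 24 h.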

How the results depend on the processing

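Counts of members called are for an adjusted p under 0.05 and both directions together. With the B-cell RNA covariate they moved at 1 h to 1 (MCC CD69-lo over NP), 3 (MCC CD69-hi over NP), 1 (MCC CD69-hi over MCC CD69-lo), 0 (MCC+GP CD69-hi over MCC+GP CD69-lo) and 1 (MCC+GP CD69-lo over GP), to 11 for MCC+GP CD69-lo over MCC CD69-lo at 24 h, and to 6, 6 and 4 for the differences between times of MCC CD69-lo over NP, MCC CD69-hi over NP and MCC+GP CD69-lo over MCC CD69-lo. A replicate block by plate round, which the labels do not call a batch, moved them to 8 and 13 for MCC CD69-hi over MCC CD69-lo at 1 and 6 h. With this block they were 5 and 13 for the differences between times of MCC CD69-lo over NP and MCC+GP CD69-lo over MCC CD69-lo. To look at the rounds, deviations of log CPM from the group mean were correlated between libraries of different groups. The median correlation was 0.07 within a round and -0.03 between rounds. In this measure 47 of 51 libraries correlated best with a library of their own round, a hint from the data. DESeq2 gave 10 for NP at 24 h over 1 h, and 4 and 12 for the same differences between times, for which only the compared groups gave 4 and 4; relative log expression factors gave 11 for the last, and without the MCC+GP CD69-lo libraries at 24 h the first was 2. These factors moved the median of all genes by over 0.1 in 10 contrasts, from -0.45 (MCC+GP CD69-hi over MCC+GP CD69-lo at 24 h) to 0.28 (MCC+GP CD69-lo over GP at 24 h), and turned no called member. With 1 library left out, at 1, 6 and 24 h, counts ranged over 1 to 10, 7 to 12 and 19 to 24 for MCC CD69-lo over NP, 20 to 24, 15 to 24 and 11 to 20 for MCC CD69-hi over NP, 1 to 7, 4 to 8 and 24 to 28 for MCC CD69-hi over MCC CD69-lo, 2 to 6, 13 to 20 and 29 to 31 for MCC+GP CD69-hi over MCC+GP CD69-lo, 2 to 11, 11 to 22 and 26 to 31 for MCC+GP CD69-lo over GP, and 15 to 25 for MCC+GP CD69-lo over MCC CD69-lo at 24 h. They were 4 to 5 for NP at 24 h over 1 h, 16 to 22 and 7 to 12 for MCC CD69-lo at 24 and 6 h over 1 h, and 0 to 3, 16 to 27 and 3 to 11 for the differences between times of MCC CD69-lo over NP, MCC CD69-hi over NP and MCC+GP CD69-lo over MCC CD69-lo. With the B-cell covariate 16 log2 fold changes turned: Spi1 -0.061, Flt3 -0.046, Sirpa -0.72 and Mpeg1 -1.0 for MCC CD69-hi over NP at 1 h; Cd83 0.32, Irf8 0.022 and Ifi30 0.13 for MCC+GP CD69-hi over MCC+GP CD69-lo at 24 h; and Cd83 0.79, Cd86 1.68, Flt3 0.060, Sirpa 0.044, Cd40 1.20, Cd209a 0.053, Tcf4 0.21, Lyz2 0.88 and Mpeg1 0.65 for the difference between times of MCC CD69-hi over NP. With 1 library left out 3 turned: without the third MCC+GP CD69-lo library at 24 h, Csf1r was 3.01 (MCC+GP CD69-hi over MCC+GP CD69-lo, lowest value -7.60 without the third MCC+GP CD69-hi library) and Lyz2 -0.89 (MCC+GP CD69-lo over GP, highest value 7.74 without the third GP library), and without the first MCC CD69-hi library at 1 h the difference between times of Cd209a for MCC CD69-hi over NP was 0.022 (lowest value -5.92 without the third). The cause was not tested. The depth of MCC+GP CD69-lo at 24 h limits every level there: its mean summed level of the 36 genes was 10340.5 CPM with scaled library sizes and 15293 CPM without. Single members called in the complete fit kept their direction and call in 362 of 373 values with DESeq2, 369 with relative log expression factors, 371 with the replicate block, 347 without the filter and 236 with the B-cell covariate, where 121 were no longer called, and in 1992 of the values with 1 library left out, where 359 were no longer called.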

Other observations

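The makeup of the members' summed CPM differed between sorts at 24 h. In MCC CD69-hi, mature dendritic cell genes made up 33.7% of the sum, plasmacytoid genes 1.55% and classical lineage genes, mostly Irf8, 46.1%. In MCC CD69-lo the same shares were 45.1%, 5.97% and 22.0%. At 6 h the mature genes held between 51.5% and 54.7% of the sum in all 4 agonist sorts, whichever their CD69. These are shares of counts, which also weigh genes by length.

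Other plasmacytoid and natural killer cell genes add to the picture of MCC CD69-lo at 24 h. Irf7, a transcription factor of the interferon response that plasmacytoid cells hold at a high level, averaged 2.07 ± 0.75 CPM in MCC CD69-hi and 429 ± 120.4 CPM in MCC CD69-lo, against 119.8 ± 25.0 CPM in NP (SD, n = 3 each; edgeR log2 fold change 1.84 ± 0.33 for CD69-lo over NP, adjusted p = 8.78e-05). Spib, which plasmacytoid and B cells use, averaged 48.3 ± 10.5 CPM in MCC CD69-lo, against 12.7 ± 3.87 CPM in NP (adjusted p = 0.00990). Ncr1, a receptor of natural killer cells, had 4.72 to 9.16 CPM in the MCC CD69-lo libraries, against 1 read in the 3 NP libraries, while Klrd1, which activated T cells share, was lower (log2 fold change -2.04 ± 0.42, adjusted p = 0.000242).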
